A study of Arabidopsis lyrata subsp. lyrata and Arabidopsis thaliana with 7 samples.

Results

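The version-2 annotation of *Arabidopsis lyrata* held 31,963 gene models from the Augustus and Cufflinks predictors or from version-1. They are called protein coding here by this source alone. Some from Cufflinks may lack a coding region, and the study's own count of protein coding models is smaller. Of the 31,963 models, 1,421 were marked as containing a transposable element (TE) and also named an *A. thaliana* ortholog. These are the TE-containing genes with an ortholog described here. They were picked by the 2 annotation fields alone, without use of any read count, from 32,793 gene models in the count table. The study had built version-2 with RNA reads of rosettes, shoot apices and inflorescences as a guide. Predicted models were kept for transcription or for overlap with version-1, so which models exist depends in part on expression. The study's methods give criteria only for what they call TE coding genes, namely a complete TE in the coding region, a TE that spans the model, or similarity to known TE genes or repeats. They do not state how the mark used here was set, which covers a larger set of models. Orthologs were defined in the study as reciprocal best protein matches. Of the 1,421 genes, 10 named more than 1 ortholog, 1,401 models came from the Augustus predictor and 20 from the version-1 annotation, and 31 overlapped another model, for which reads cannot be told apart without strand.

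Poly-A RNA was sequenced from mock-treated plants of *A. lyrata* subsp. *lyrata* cultivar MN47, a single accession and the source of the reference genome, and of *A. thaliana* cultivar Col-0. All plants grew in soil with 16 h of light at 21 °C and 8 h of dark. The *A. lyrata* libraries were 2 of complete vegetative rosettes and 1 of dissected shoot apices, both from plants of about 3 weeks with 5 leaves, and 2 of complete inflorescences from the main stem, and the *A. thaliana* libraries were 2 of rosettes. The labels do not say whether replicates came from separate plants, so p-values measure the spread between these libraries, which may be technical.

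TEs are mobile DNA sequences that insert copies of themselves or move within a genome, and plants hold most of them silent through DNA methylation and small RNAs. A TE inside an intron or UTR can leave the encoded protein as it was while the gene becomes longer, whereas a TE in the reading frame changes the predicted protein. Some families with many similar copies, among them resistance genes, receptor kinases and F-box genes, turn over quickly between related plants. The outcrossing *A. lyrata* has a larger and more TE-rich genome than the selfing *A. thaliana*, so a gene with the mark can be set beside an ortholog in a more compact genome.

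Genes whose longest intron interrupted the reading frame at a position where the ortholog also had an intron show the difference between the species at a fixed point of the coding sequence. For 4 such genes the intron borders in *A. thaliana* are printed, since the coding bases beside them locate the intron that is longer in *A. lyrata*. Each sequence holds 30 bases 5′ to 3′ on the coding strand, 15 of exon and 15 of intron, from the RefSeq TAIR10.1 assembly, with the conserved GT at the intron start and AG at the intron end in capitals. The ortholog AT1G31690, a copper amine oxidase, has this intron at chr1:11346056-11346463 on the plus strand (408 bp), and the *A. lyrata* intron of AL1G44640 at scaffold 1 from 14336805 to 14343589 is 6785 bp long. In AT1G59960, an NAD(P)-linked oxidoreductase, the intron lies at chr1:22071638-22071885 on the minus strand (248 bp), against 5683 bp in AL2G16470. For FMO GS-OX2 (AT1G62540), a flavin monooxygenase that oxidises the sulphur of aliphatic glucosinolates, it lies at chr1:23153548-23153987 on the plus strand (440 bp), against 2972 bp in AL2G13170. TBL36 (AT3G54260), of the TRICHOME BIREFRINGENCE-LIKE family, has it at chr3:20085653-20085809 on the minus strand (157 bp), against 1897 bp in AL5G34220.
AT1G31690 intron start: tccatcaaaatggggGTaacatcgttcgaa
AT1G31690 intron end: ctttgatgtgcgtAGgtcggtttaaccggt
AT1G59960 intron start: aaaacagtggcccagGTactttcaaaagtt
AT1G59960 intron end: gagttgtaattacAGgtgagtatgagatgg
FMO GS-OX2 intron start: ccattcgaaaacgagGTaattgtatttttt
FMO GS-OX2 intron end: ttggtgctttggcAGgtggtggtggtcatc
TBL36 intron start: tcagagatggagttcGTaagtcatctgaat
TBL36 intron end: ctattgatgttttAGgtgggattattacat

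At 3 of the genes the study had designed primers to test a version-1 model that was split in version-2, with a pair called C placed across the gap between the resulting models. These pairs are shown, with no base in capitals, because they mark where the boundary of a TE-containing gene was redrawn. The genes are DCL2 (AL3G12880, scaffold 3 from 992461 to 1000057), a Dicer-like ribonuclease that makes small interfering RNAs, CYP71B28 (AL1G24450, scaffold 1 from 5427234 to 5428982), a cytochrome P450, and AT1G12290 (AL1G23320, scaffold 1 from 4989759 to 4994363), a resistance protein of the CC-NBS-LRR class.
DCL2 forward: cagaatgcctgtggtttgg
DCL2 reverse: tcatcaccagaacctgcac
CYP71B28 forward: acttcttcgattgggggctg
CYP71B28 reverse: agacggtgcaagtttccgat
AT1G12290 forward: acaacctcccattgctggag
AT1G12290 reverse: tgcgcttcatctccctttgt

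The TE-containing genes with an ortholog were long genes with more exons and longer introns than the other genes with an ortholog. Their median gene length was 3115 bp (quartiles 2050 and 4595 bp, n = 1,421), against 2165 bp for the 20,722 genes with an ortholog and no TE mark. They had a median of 6 exons against 4, a summed intron length of 1003 against 647 bp, and a coding length of 1509 against 1104 bp. Their *A. thaliana* orthologs differed in the same direction, with medians of 5 against 4 exons and 1389 against 1101 coding bp. Ortholog gene length was 2428 against 2258 bp, and summed intron length 601 against 588.5 bp. Only 96 of them (6.76%) had a single exon, against 17.1% of the genes without the mark. These are properties of gene models and not of replicates, so they are given without a test.

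Long introns set the members apart from unmarked genes with an ortholog, as they did other TE-containing models. An intron of at least 1000 bp occurred in 287 (20.2%, exact 95% interval 18.1 to 22.4%), against 4.68% of genes with an ortholog and no mark and 24.9% of the 2,779 TE-containing models without an ortholog. Of these 287 longest introns, 171 lay between coding exons, 102 in the 5′ UTR and 14 in the 3′ UTR. Compared with the ortholog, the longest intron was at least 1000 bp longer in 195 of 1,401 genes (13.9%), against 1.85% of the genes without the mark. An *A. thaliana* intron after exactly the same number of coding bases was found for 33 of 165 long coding introns. Among genes without the mark this held for 273 of 620. The coding sequences were not aligned, so a length difference upstream can hide a match. The other introns therefore need not be absent from the ortholog.

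**Figure D1:**
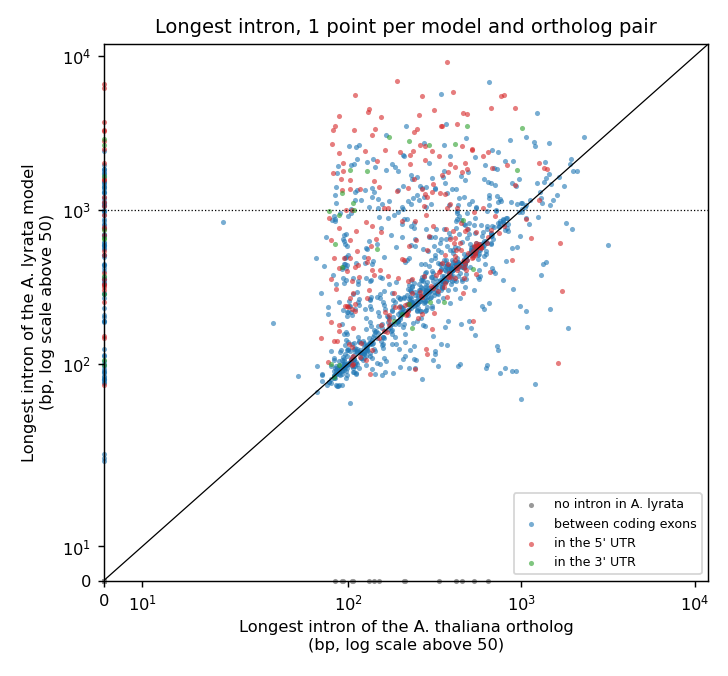
Longest intron of each TE-containing *A. lyrata* gene (vertical axis, bp) against that of its *A. thaliana* ortholog (horizontal axis, bp), both logarithmic above 50 bp, for 1,401 pairs coloured by where the *A. lyrata* intron lies. Most points lie along the line of equal length, while a cloud above it reaches past the dotted line at 1000 bp, up to 9185 bp.

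The longest intron of all, 9185 bp in the 5′ UTR of AL8G22120, belonged to the ortholog of the pectin lyase-like gene AT5G49215, where the longest intron is 373 bp. It had rosette counts of 237 and 239 and inflorescence counts of 293 and 353. This model of 12555 bp, with 1344 bp of coding sequence, thus took reads in both organs. Counts per model do not show whether exons are joined across such an intron. In AL6G43500, the ortholog of the NAC alpha subunit gene AT4G10480, which belongs to a complex that binds nascent polypeptides, the 5′ UTR intron measured 6860 bp against 192 bp, and the model still took 2156 and 2143 rosette reads and 4226 and 3853 inflorescence reads. AP2 (AL7G13500), a transcription factor that specifies floral organs, spanned 13980 bp against 2860 bp in *A. thaliana*, with a 5′ UTR intron of 5553 bp where the longest *A. thaliana* intron is 110 bp, although the coding lengths were 1290 and 1299 bp. Its counts were 1913 and 1556 in the inflorescences against 258 and 247 in the rosettes. By contrast AL4G34310, a MATE transporter model with an intron of 6202 bp, had no read in any of the rosette, apex and inflorescence libraries. A phospholipase D gene, PLDGAMMA3 (AL6G45410), with a 5′ UTR intron of 5825 bp, had 4.24 and 4.57 CPM in rosettes, 5.96 in the apex and 3.62 and 3.52 in inflorescences, where CPM is the count scaled to a common library size.

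The predicted proteins mostly had the length of the ortholog. Coding length was within 10% of the ortholog in 975 of 1,401 genes (69.6%), longer in 328 (23.4%) and shorter in 98, whereas 89.2% of genes without the mark were within 10% and 5.6% were longer. The median ratio of coding lengths was 1, but 1 gene in 10 had a ratio of 1.87 or more. Gene length, introns included, was at least 1.5 times that of the ortholog in 373 genes (26.6%, against 4.19% without the mark). Of those 373, 116 had a coding length within 10%, so their extra length lay in introns and UTRs. Ortholog length had entered the annotation for some models, since a model whose protein length differed strongly from version-1 was set back to version-1 where that was closer to its orthologs.

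The genes with the highest ratio of gene length to the ortholog were of another kind than the long-intron genes, since their predicted proteins differed. AL7G51020, a protein kinase model of 19479 bp with 24 exons and 13146 bp of coding sequence, is paired with AT5G38260, which has 2146 bp, 2 exons and 1917 coding bp. CYCT1;1 (AL1G48960), a cyclin model, had 3294 coding bp against 744 bp, with inflorescence counts of 5 and 9 and no read elsewhere. The zinc knuckle model AL1G52880 (AT2G12880) had 2760 coding bp against 360 bp and no read in any *A. lyrata* library. Reads were few in these models, and the kinase AL7G51020 was the best covered of the 3, with rosette counts of 60 and 239.

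Some gene families had most of their models marked. Families were named by the product of the ortholog in the RefSeq annotation, which matched 1,410 of the 1,421 genes. Among all 22,074 models with a matched ortholog, 6.39% were marked, but 11 of 217 families with at least 10 models had 50% or more of their models marked. These 11 families held 157 of the 1,410 matched members (11.1%). Of the FAD-binding Berberine family, oxidases of the berberine bridge type, 24 of 25 models were members. The mark also covered 28 of 32 resistance proteins of the TIR-NBS-LRR class, 14 of 16 S-locus lectin kinases, 10 of 11 genes related to ubiquitin carboxyl-terminal hydrolases, 9 of 10 B3 family factors and 30 of 54 genes with F-box and RNI-like domains. In larger families the share was lower, with 16 of 175 pentatricopeptide repeat (PPR) genes (9.14%) and 4 of 253 RING/U-box genes (1.58%). Coding length was within 10% of the ortholog in 21 of the 24 Berberine genes, 23 of the 28 TIR-NBS-LRR genes and all 10 ubiquitin hydrolase genes. Of these genes, 2, 5 and 0 had an intron of at least 1000 bp. In other highly marked families it was so less often, in 5 of 9 B3 genes, 4 of 8 Toll-Interleukin-Resistance domain genes and 2 of 8 DUF626 genes. Of those, 3, 3 and 2 had such an intron. The share of models that were members ranged from 3.50% on scaffold 3 to 5.62% on scaffold 5 among the 8 large scaffolds.

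Libraries held between 10,556,736 (apex) and 28,347,972 (inflorescence) counted reads, and the 2 rosettes 14,440,792 and 13,340,336. CPM values are relative to these totals, multiplied by TMM factors from 0.722 to 1.32. Marker genes followed the labels, since 6 flower genes summed to 1221 and 1338 CPM in the inflorescences and at most 6.31 elsewhere, and 5 leaf genes to 40,239 and 43,697 CPM in the rosettes against at most 3143 elsewhere. In the dissected apex, labelled shoot apical meristem, the stem cell genes WUS and CLV3 had 2 and 3 reads. The meristem genes STM and KNAT1 had 588 and 936 reads there. In the inflorescences WUS had 194 and 265 reads and CLV3 had 0 and 1. The 4 root genes summed to 31.6 and 0.104 CPM in rosette replicates 1 and 2, 32.7 in the apex, and 9.25 and 8.84 in inflorescences. In rosette replicate 1 and the apex nearly all of this was PYK10 (365 and 454 reads), while RHD6 and EXPA7 had at most 2 reads in any library and SHV2 was highest in inflorescences (285 and 264 reads). The 6 shoot meristem genes summed to 5.88 and 1.14 CPM in the rosettes, 127 in the apex, and 103 and 106 in the inflorescences. Among members with at least 20 reads, 47 were at least 4-fold higher in rosette replicate 1 and 11 in replicate 2 (of 871), and the part of these marker differences in the rosette results was not tested. Fewer cells of a type and less RNA per cell cannot be told apart in libraries from whole organs. In the study's read statistics, inflorescence reads are shorter than those of the apex and of the replicated wild-type rosettes. Organ and read length therefore cannot be told apart in comparisons with inflorescences.

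Most TE-containing genes with an ortholog were transcribed, at lower levels than other genes with an ortholog. RNA reads had helped to build the models, so the shares detected depend in part on how the annotation was made. The study calls a model expressed at 5 or more reads, a limit applied here to each library alone. It was passed by 979 and 908 of the 1,421 genes in the rosettes (68.9 and 63.9%) and 990 in the apex (69.7%). In the inflorescences, where depth was about double, 1148 and 1180 genes passed it (80.8 and 83.0%). All 5 libraries passed this limit for 863 genes (60.7%), and 67 had no read in any. Genes with an ortholog and no mark were detected at 77.5 to 91.5% per library and TE-containing genes without an ortholog at 31.0 to 53.2%, so the genes lay between these classes in each of the 5 libraries. Levels per kb of exon gave the same order: the median was 2.46 and 1.82 CPM per kb in the rosettes, 2.26 in the apex, and 2.79 and 2.92 in the inflorescences, against 7.64 to 9.14 for unmarked genes with an ortholog. The genes took 3.40 and 3.24% of all reads in the rosettes, 4.19% in the apex, and 3.84 and 3.8% in the inflorescences.

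**Figure D2:**
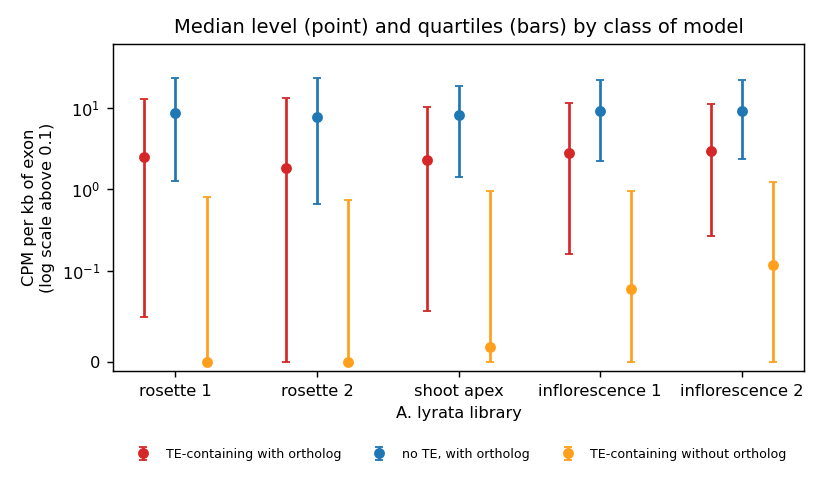
Median level (points) with quartiles (bars) in CPM per kb of exon, on an axis that is logarithmic above 0.1, for 3 classes of gene model in each of the 5 *A. lyrata* libraries. The TE-containing genes with an ortholog have medians from 1.82 to 2.92, below the unmarked genes with an ortholog and above the TE-containing genes without one.

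Within the members, levels differed by coding length and by intron length. Averaged over the 5 libraries, the median was 5.63 CPM per kb for the 975 genes within 10% of the ortholog, 0.843 for the 328 longer ones and 0.157 for the 98 shorter ones. It was 0.928 for the 287 genes with an intron of at least 1000 bp and 4.16 for the other 1134. The shares of genes with at least 5 reads in any library were nearly equal for long and short introns, at 86.8% (interval 82.3 to 90.5%) and 87.5% (85.4 to 89.3%), while they were 91.0, 85.1 and 61.2% for coding lengths within, above and below 10% of the ortholog. Among unmarked genes with an ortholog these 3 shares were 94.9, 87.2 and 82.5%.

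A few members were among the strongly transcribed genes of every organ. HA1 (AL3G51190), a plasma membrane proton pump, and ACT7 (AL6G19910), an actin of growing tissue, were in the top 10 members in rosettes, apex and inflorescences, with mean CPM of 724, 488 and 445 for HA1 and 665, 597 and 535 for ACT7. MEE38 (AL3G52380) was the most abundant member of the apex at 1306 CPM, with a mean of 539 CPM in the rosettes and 342 in the inflorescences. Its replicates lay far apart, with rosettes at 312 and 767 CPM and inflorescences at 148 and 536. The nearby member AT1G33860 (AL3G52420), an uncharacterized gene whose model starts at 24367922 on scaffold 3 where MEE38 ends at 24329579, had 139 and 307 CPM in rosettes, 535 in the apex, and 59.4 and 219 in inflorescences, so the higher library was the same for both genes in rosettes and in inflorescences.

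Between inflorescences and rosettes, 426 members changed, about evenly in both directions. Of 1,140 members with enough reads to be tested, 201 were higher in the inflorescences (17.6% of those tested, with 17.6% over all 25,465 models) and 225 were lower (19.7%, with 16.7% over all models), at an adjusted p under 0.05. The rise was close to the rate among all models and the fall a little above it, and among unmarked genes with an ortholog the rates were 17.6 and 18.3%. The median log2 fold change of the members was 0.01, and 0.09 over all models. Scaling to library totals alone shifted the median of all models to 0.68 and gave 393 members higher and 161 lower, and DESeq2 gave 214 and 249. Leaving out rosette replicate 1 gave 338 and 304 calls and rosette replicate 2 gave 297 and 347, whereas leaving out inflorescence replicate 1 gave 35 and 14 and inflorescence replicate 2 gave 39 and 24.

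**Figure D3:**
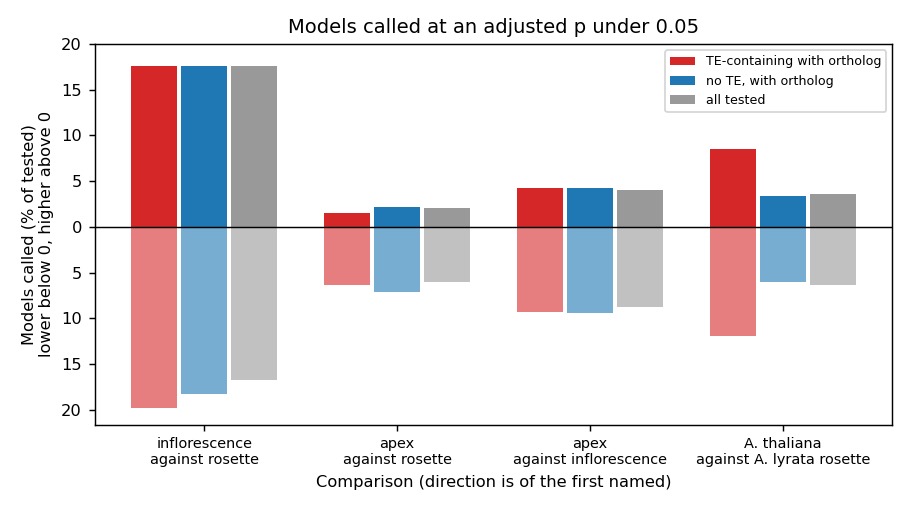
Percentage of tested models called higher (above 0) or lower (below 0) in the first named sample of each comparison, for the TE-containing genes with an ortholog, the unmarked genes with an ortholog and all tested models. In the tissue comparisons the bars of the classes are close to each other, and in the comparison of species the members reach 8.51 and 11.9% against 3.63 and 6.37% of all models.

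The genes with the largest rise in the inflorescences were silent or nearly so in the other organs. HA8 (AL5G20340), a plasma membrane proton pump, had 31271 and 22178 reads in the inflorescences and none in the rosettes or the apex, which makes it at least 3001-fold higher than in rosettes, with the floor set at 3 reads per library. HA6 (AL3G43030), of the same pump family, had 2821 and 3128 reads there and none elsewhere, at least 336-fold higher than in rosettes. The P450 gene CYP71B8 (AL5G33130) rose from 0 in both rosettes to 28855 and 15628 reads. CYP703A2 (AL1G11130), a fatty acid hydroxylase for the pollen wall, had 2084 and 2016 reads in the inflorescences and none elsewhere, and CSLD4 (AL7G10080), a cellulose synthase-like protein of pollen tubes, had 1615 and 1181. Both PERK6 (AL3G31570, 2464 and 1832 reads) and PERK5 (AL7G16570, 1396 and 1192 reads), receptor kinases with an extensin-like domain, had no read in the rosettes. The Berberine gene AT1G30710 (AL1G43710) had 10600 and 7304 reads in the inflorescences against 0 in the other 3 libraries. Adjusted p-values for these 8 genes were from 0.00245 to 0.00335 by edgeR's quasi-likelihood test. The 4 pollen and tapetum marker genes summed to 1561 and 1319 CPM in the inflorescences and to between 16.4 and 30.3 CPM elsewhere, where 2 of them had no read and nearly all came from MS1, and the part of these cell types in the rises was not tested.

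Members of this all-or-none kind numbered 90, with at least 5 reads in both inflorescences and none in the rosettes and the apex (6.33%, with 5.4% over all protein coding models). The share was 4.02% in unmarked genes with an ortholog, 6.44% in TE-containing models without one and 8.86% in unmarked models without one. The opposite pattern, reads in both rosettes alone, occurred in 1 member, and no member had 5 reads in the apex alone. The inflorescence libraries were about double the depth of the others, so a low level could be seen there and be missed elsewhere. Their reads were also shorter, and the part of read length was not tested.

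Members with the largest fall in the inflorescences included enzymes, receptors and a resistance gene. BGLU8 (AL5G44120), a beta-glucosidase, had rosette counts of 1701 and 2443, an apex count of 229 and inflorescence counts of 7 and 8, a log2 fold change of -9.66 ± 0.47 (SE, adjusted p = 0.00245, edgeR's quasi-likelihood test). CYP83A1 (AL7G41730), a P450 that oxidises aldoximes in the synthesis of aliphatic glucosinolates, was the third most abundant member of the rosettes, with 1479 and 1476 CPM there, 861 in the apex, and 7.33 and 15 in inflorescences (log2 fold change -7.05 ± 0.51). RLP19 (AL3G45360), a receptor-like protein, fell from 165 and 295 reads to 2 and 3, and WAK1 (AL1G33750), a kinase that binds pectin in the cell wall, from 121 and 908 to 7 and 13. Its 2 rosette libraries thus lay far apart, at 10.5 and 94.2 CPM, while each lay above both inflorescences, as the choice of these members required. RLM3 (AL7G36860), a TIR-NBS gene of fungal resistance, fell from 615 and 404 reads to 8 and 25, and the S-locus lectin kinase AT4G27300 (AL7G25020) from 574 and 346 to 8 and 12. DIN11 (AL8G21760), an oxygenase induced in the dark whose model has 5337 coding bp against 1074 bp in the ortholog, had 50.7 CPM in the apex, between the rosettes at 61.7 and 38.3, and 1.76 and 1.05 CPM in inflorescences.

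**Figure D4:**
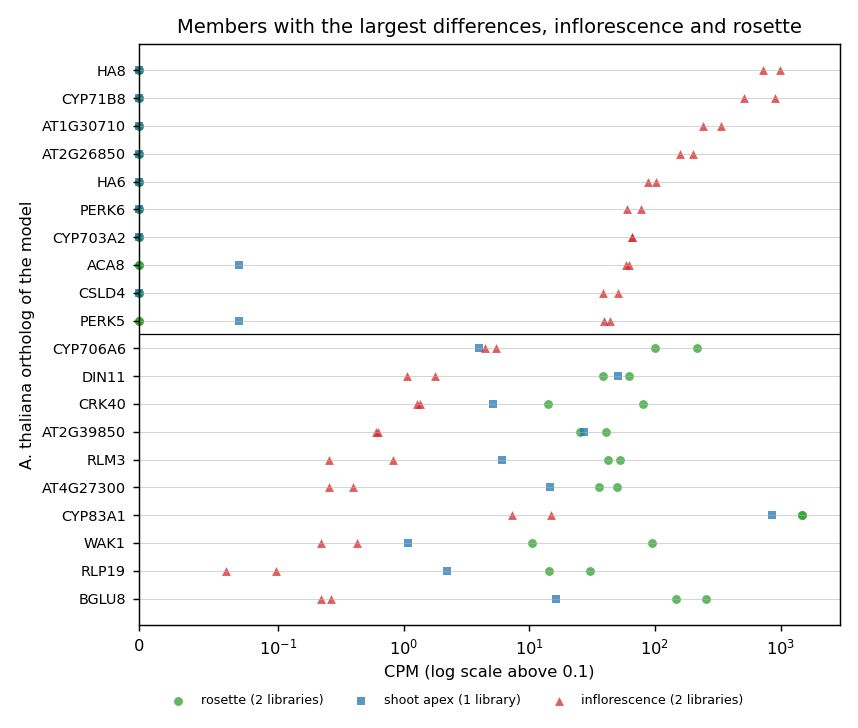
CPM in each *A. lyrata* library, on an axis that is logarithmic above 0.1, for the 10 members with the largest rise (top) and the 10 with the largest fall (bottom) in inflorescences against rosettes. The risen genes lie at 0 in both rosettes, and in the fallen genes both rosettes lie above both inflorescences. Members were picked for no overlap between these libraries, so this separation follows from the choice.

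Gene groups, formed by words in the ortholog's product name, moved in different directions. Their shares are read against 17.6% higher and 16.7% lower over all tested models. Among protein kinases 182 of 1212 models were members, and of 154 tested 48 were lower in the inflorescences (31.2%) and 13 higher (8.44%), with a median log2 fold change of -0.41 beside 0.09 for all models. Under library totals alone the kinase median turned to 0.18, beside 0.68 for all models, with 38 lower and 30 higher. LRR receptor kinases were among the lower ones, such as AT1G51805 (AL1G58120) with rosette counts of 1590 and 1441 against 117 and 180, and AT4G08850 (AL6G41730) with 1326 and 1080 against 616 and 536. Disease resistance genes, with 51 of 111 models as members, had 20 lower (45.5%) and 2 higher of 44 tested, and a median of -1.10. RPP4 (AL7G36890) and RPP1 (AL5G22150), TIR-NBS-LRR genes of downy mildew resistance, had log2 fold changes of -2.71 ± 0.17 and -2.52 ± 0.22. P450 genes, 65 of 172 models, had 18 lower (36%) and 8 higher (16%) of 50 tested (median -1.57). Without inflorescence replicate 1 the medians of these 3 lists stayed negative, but the excess of lower calls was lost for kinases (4 higher, 3 lower) and P450 genes (3 and 3), with 0 and 1 for resistance genes by edgeR (2 and 15 at an unadjusted p under 0.05). Without inflorescence replicate 2 the calls were 4 and 4, 5 and 4, and 0 and 2 (2 and 16 unadjusted), and DESeq2 on all libraries called 2 resistance genes higher and 19 lower.

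Other groups had more higher than lower calls. F-box genes, the substrate adaptors of ubiquitin ligases and 108 of 378 models, had 17 higher (22.7%) and 4 lower (5.33%) of 75 tested, with a median of 0.97, or 0.58 with the 25 genes at 0 in an organ set at their bound, and with 1 higher when either inflorescence library was left out. AT2G26850 (AL4G19380) had 6439 and 4796 reads in the inflorescences and none elsewhere, while AT2G03560 (AL5G13180) fell from 579 and 453 reads to 60 and 91. The list of ubiquitin ligase words had 10 higher (37%) and 1 lower of 27 tested (median 1.67), but its leading members, AT1G65140, AT1G65110, AT1G65160 and AT1G52450, are of the ubiquitin carboxyl-terminal hydrolase family, which removes ubiquitin and is not a ligase. All 10 genes of the hydrolase-related family were tested and 7 were higher, AT1G65110 (AL2G19340) with 337 and 199 reads against 10 and 7. Transcription factors had 8 higher (32%) and 1 lower of 25 tested, among them AT2G38090 (AL4G33700) with 641 and 524 reads against 63 and 51. With inflorescence replicate 1 left out, edgeR called no gene of the ubiquitin and transcription factor lists (7 higher in each at an unadjusted p under 0.05), nor with replicate 2 left out (10 and 7), while DESeq2 on all libraries called 11 and 8 higher. The 24 Berberine genes were divided, with 5 higher and 7 lower.

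The remaining lists had 33 tested members or fewer each. PPR and tetratricopeptide genes had 2 higher and 5 lower of 33, transporters 1 and 6 of 14 (42.9% lower), with PEN3 (AL2G16560), an ABC transporter of pathogen defence, at 233 and 590 CPM in the rosettes against 12.9 and 15.5. Of 23 genes of chromatin, DNA repair and silencing, 3 were higher and 4 lower, and the 2 leading ones, AT2G45750 and AT1G04430, are of a broad methyltransferase family that is not known to act on DNA. Only 3 members were photosynthesis or chloroplast genes, of 189 such models, and 2 of them were lower. Members derived from or related to transposons, 11 of 58 models, had 1 higher and 1 lower of 7 tested. That higher gene was the PIF1 helicase gene AT3G51690 (AL5G31090), with 80 and 80 reads in the inflorescences and none elsewhere.

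The single apex library was compared with the rosettes, on the assumption that it varies like the replicated tissues. Of the 1,140 members tested, 18 were higher in the apex (1.58%, with 2.11% over all models) and 72 lower (6.32%, with 6.03%). Under library totals alone, which moved the median of all models from 0.00 to 0.67, they were 205 and 60. ERL1 (AL8G37760), a receptor kinase of the ERECTA family in growth and stomatal patterning, had 3.98 and 1.97 CPM in the rosettes and 21.5 in the apex, a log2 difference of 2.83 ± 0.40 (adjusted p = 0.0363, edgeR's quasi-likelihood test). CESA10 (AL4G16540), a cellulose synthase subunit, had 2.33 and 1.14 CPM against 24. CHR1 (AL8G43370), the chromatin remodeller also known as DDM1 that keeps TEs methylated, had rosette counts of 164 and 76 and an apex count of 667 (2.11 ± 0.37) in a model of 6276 coding bp against 2295 bp in the ortholog, and BRCA2B (AL6G10410), of recombination repair, had 58 and 41 against 309 (2.25 ± 0.25). TBL36, whose coding intron is longer than that of its ortholog, had 7.69 and 5.4 CPM against 23.5.

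The largest apex deficit was that of the copper amine oxidase AT1G31690 (AL1G44640), with the intron of 6785 bp. It had 302 and 330 CPM in the rosettes, 49.4 and 48.3 in the inflorescences and 2.87 in the apex, 110-fold lower than in the rosettes (log2 -6.78 ± 0.28, adjusted p = 0.0318). The P450 genes CYP71B4 (AL5G14790), with 550 and 786 rosette reads against 15, and CYP706A6 (AL6G46020), with 1163 and 2082 against 55, followed the same course, and P450 genes as a list had 12 lower and 1 higher of 50 tested. SSL4 (AL5G30820), a strictosidine synthase-like gene, had 1465 and 1550 against 43. Leaving out rosette replicate 1 gave 199 higher and 261 lower members, and rosette replicate 2 gave 121 and 232. By edgeR's quasi-likelihood test no member was called once inflorescence replicate 1 was left out (54 higher and 126 lower at an unadjusted p under 0.05) or inflorescence replicate 2 (50 and 124), and DESeq2 on all libraries called 52 and 142.

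Between the apex and the inflorescences, 48 members were higher in the apex (4.21%, with 3.99% over all models) and 106 lower (9.30%, with 8.74%), or 69 and 81 under library totals alone, which moved the median of all models from -0.08 to 0.13. Among the lower genes were HA8, HA6 and CYP703A2, which had no read outside the inflorescences, and CYP71B8. Higher ones included CYP83A1 at 861 CPM against 7.33 and 15, and FMO GS-OX3 (AL2G13160), a glucosinolate oxygenase next to FMO GS-OX2, at 828 CPM in the apex against 53.5 and 60.4 for inflorescences and 347 and 277 for rosettes (log2 3.86 ± 0.25, adjusted p = 0.00783, edgeR's quasi-likelihood test). CYP78A7 (AL6G20080) had 1075 and 601 reads in the inflorescences and none in the apex. Resistance genes had 6 higher and 0 lower of 44 tested by edgeR (12 and 2 at an unadjusted p under 0.05), and likewise 6 and 0 by DESeq2. Calls rose to 268 and 297 when rosette replicate 1 was dropped and to 269 and 298 for rosette replicate 2, and edgeR called none when inflorescence replicate 1 (62 and 134 at an unadjusted p under 0.05) or inflorescence replicate 2 (76 and 128) was dropped, beside 90 and 155 by DESeq2 on all libraries.

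Rosettes of the 2 species were compared over 17,235 ortholog pairs, with each count scaled to the exon length of its own gene model. Among 940 members tested, 80 had a higher level in *A. thaliana* (8.51%, with 3.63% over all pairs) and 112 a lower one (11.9%, with 6.37% over all pairs). Both rates were above those of the unmarked genes, at 3.35 and 6.05%. The species were counted on separate annotations and genomes, so a difference in RNA and a difference in gene model or read mapping cannot be told apart. Members within 10% of the ortholog's coding length had 50 and 76 calls of 724 (6.91 and 10.5%), against 2.96 and 5.48% for unmarked genes so restricted, and longer ones 26 and 27 of 175. With genomic span in place of exon length the counts were 93 and 99. Dropping *A. lyrata* rosette replicate 1 gave 58 and 74, *A. lyrata* replicate 2 gave 48 and 61, *A. thaliana* replicate 2 gave 10 and 14, and *A. thaliana* replicate 1 gave 0 and 0 by edgeR (133 and 158 at an unadjusted p under 0.05), with 134 and 161 by DESeq2 on all 4 libraries.

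Levels in the 2 species were related, less closely for members than for other genes. Over the 940 members, Pearson's r of log2(CPM per kb + 0.1) was 0.63 and Spearman's rho 0.73, against 0.75 and 0.81 over 16,295 unmarked pairs, as a description, since genes of 1 library share its depth and are not independent. A difference of at least 4-fold between the species means was found for 226 members (24%), against 11.3% of unmarked pairs, and for 19.2% of members within 10% of the coding length. At least 5 reads in all 4 rosette libraries were found for 773 of 1,401 pairs (55.2%, against 73.0%), in both *A. lyrata* libraries and neither *A. thaliana* one for 90 (6.42%, against 2.71%), and the reverse for 45 (3.21%, against 1.72%).

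**Figure D5:**
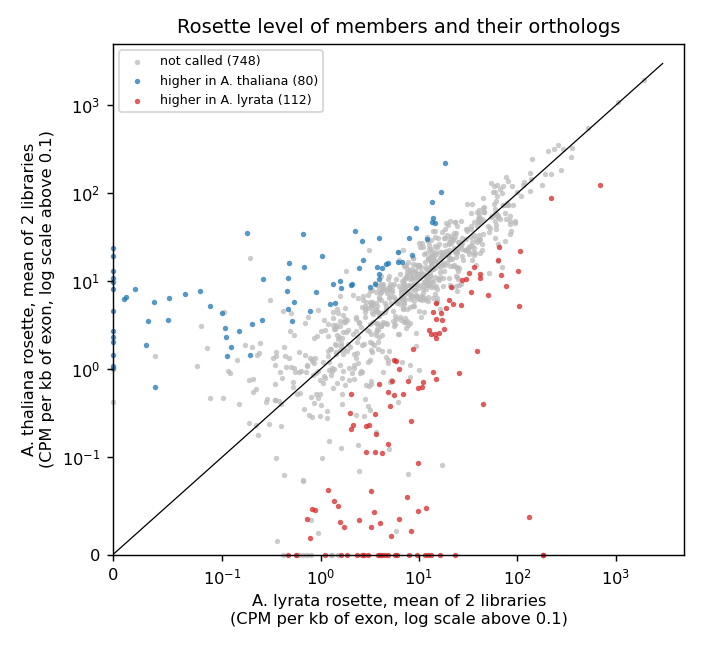
Rosette level of 940 TE-containing genes in *A. lyrata* (horizontal axis) and of their orthologs in *A. thaliana* (vertical axis), as means of 2 libraries in CPM per kb of exon on axes that are logarithmic above 0.1. The 80 genes higher in *A. thaliana* and the 112 higher in *A. lyrata* lie away from the line of equal level, many of them on an axis, where 1 species had no read.

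Several resistance and receptor genes were read in *A. thaliana* rosettes and hardly in *A. lyrata*. LAZ5 (AL8G14360), of the TIR-NBS-LRR class, had 335 and 461 reads in *A. thaliana* and none in *A. lyrata*, at least 124-fold higher per kb against 3 reads per library. RPS4 (AL8G13550), which recognises a bacterial effector, had 278 and 323 reads against 1 and 0. The LRR kinase AT1G35710 (AL1G49240) had 1857 and 1671 reads, or 35.6 and 35.0 CPM per kb, against 0.0727 and 0.288 (log2 difference 7.64 ± 0.65, adjusted p = 0.0091, edgeR's quasi-likelihood test), and its *A. lyrata* model holds an intron of 3509 bp. RLP31 (AL3G15680), with 183 and 222 reads against 1 and 1, had a coding length of 0.524 of its ortholog. The DNA binding protein AT3G47680 (AL1G59410) was at 24 and 23.7 CPM per kb in *A. thaliana* and had no read in any *A. lyrata* library. CYP71B35 (AL5G14850), equal in coding length, had 186 and 248 reads against 0 and 0.

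Other members showed the opposite difference. MEE38 had 3608 and 7385 reads in the *A. lyrata* rosettes and none in those of *A. thaliana*, at least 654-fold higher per kb, and its model had 2.42 times the coding length of the ortholog. AT1G33860, its neighbour, had 1606 and 2953 reads against none, at least 502-fold higher, with a ratio of coding lengths of 1.45. The RNA-binding genes AT1G45100 (AL7G19450), with 690 and 625 reads against 0 and 0, and AT5G03480 (AL6G12840), with 1835 and 2303 against 0 and 1, were read in every *A. lyrata* library, at 59.7 to 77.6 CPM and at 159 to 239 CPM. RLP37 (AL3G36880) and RLP50 (AL7G41690), receptor-like proteins, had 178 and 632 and 331 and 480 reads against none, each within 10% of the ortholog's coding length. Both directions thus held genes of the RLP family. DCL2, with the same coding length of 4167 bp in both species, had 24.4 and 19.6 CPM per kb in *A. lyrata* rosettes against 5.4 and 5.46 in *A. thaliana* (log2 difference -2.02 ± 0.26, adjusted p = 0.0186), while its organs in *A. lyrata* lay between 116 and 161 CPM.

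Of the lists, read against 3.63% higher and 6.37% lower over all pairs, resistance genes and P450 genes each had 8 higher and 8 lower members of 44 tested (18.2% each way). Kinases had 18 higher and 10 lower of 144 (12.5 and 6.94%) and F-box genes 6 and 12 of 46 (13 and 26.1%). The TIR-NBS-LRR family alone had 6 higher in *A. thaliana* and 3 lower of 22. Genes of uncharacterized product had 1 higher and 9 lower of 26. PSBQA (AL7G32090), a subunit of photosystem II and the most abundant member of the rosettes, had a log2 difference of 0.01 ± 0.44 between the species. HA8, unread in *A. lyrata* rosettes, had 153 and 214 reads in *A. thaliana* rosettes (adjusted p = 0.0120, edgeR's quasi-likelihood test), at least 65.3-fold higher per kb.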

How the data were processed

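The authors deposited raw counts of reads per gene model for 5 *A. lyrata* and 2 *A. thaliana* libraries, with the version-2 annotation. The submitters' processing notes name TAIR10, FastQC and TopHat, and the tool of read counting, and whether reads that align to several places were counted, are not given in the sources used here. Values of genes with near-identical copies are therefore uncertain. Scaled columns headed RPKM were not used, since those of *A. lyrata* hold no gene length.

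Structure was read from the first transcript of each model and of its ortholog in the RefSeq TAIR10.1 annotation. Tissues were compared in 1 fit of the 5 *A. lyrata* libraries, and species over ortholog pairs with exon length as offset, by edgeR 4.0.16 (R 4.3.3; TMM, filterByExpr, glmQLFit, glmQLFTest) over all models, with Benjamini-Hochberg adjusted p under 0.05. The biological coefficient of variation was 0.303 for tissues and 0.376 for species, each with 2 residual degrees of freedom. The code was tested on simulated data with the same spread for all genes and for both comparisons. That spread was near the tissue value and below the species value, so the simulated species data varied less than the real data. At a log2 difference of 1 it called 5 of 67 genes between inflorescences and rosettes and 4 of 67 between species. At a log2 difference of 2 it called 49 of 67 and 54 of 67, so a member not called may still differ. Exact (Clopper-Pearson) 95% intervals treat gene models as independent draws, which they are not, and do not measure the spread between libraries or plants. The floor of 3 reads per library covers counting error only.

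Named members were, per tissue comparison, the 10 with the largest rise and fall among called members with an average log2 CPM above 3 and no overlap between libraries, and the 10 most abundant per tissue. To these came the 10 with the largest species difference each way, the 10 with the longest intron, the 10 with the largest length ratio, members at primer loci and up to 4 per product list. FMO GS-OX2, chosen after its values were seen, and the marker genes were named in addition. Members and lists were chosen with earlier results of these data known. Alternatives were other scaling, no filter, DESeq2 1.42.0, a replicate block, leaving out each replicate and other lengths. Plots used matplotlib 3.10.9.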

Additional observations from a re-analysis of the deposited data

How the results depend on the processing

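The replicates of a group agreed less well in rosettes than in inflorescences, and the counts of called members moved with the library left out. By edgeR's quasi-likelihood test they ran from 35 to 338 higher and from 14 to 347 lower in inflorescences against rosettes, from 0 to 199 and 0 to 261 in the apex against rosettes, from 0 to 269 and 0 to 298 in the apex against inflorescences, and from 0 to 58 and 0 to 74 in *A. thaliana* against *A. lyrata*. Each fit has 2 residual degrees of freedom or fewer, so calls and their number depend on how the spread is shared across genes. Scaling to library totals gave 393 higher members in inflorescences and 205 in the apex, both against rosettes. DESeq2 gave 52 higher and 142 lower in the apex against rosettes, 90 higher in the apex against inflorescences and 134 higher in *A. thaliana*. Under DESeq2, 400 values of named members kept their direction and side of the threshold and 32 newly passed it. For AT1G59960 the species difference turned to 0.27 with genomic span as length, and for OEP37 (AL4G41040) to -0.43 without a length offset, in both by construction of the length used.

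A replicate block gave 0 and 0 calls in the apex against rosettes (85 and 178 at an unadjusted p under 0.05), 24 and 48 in the apex against inflorescences, 32 and 37 in the species comparison, and 157 and 186 in inflorescences against rosettes. Deviations of same-numbered libraries correlated at 0.14 between rosettes and inflorescences and at -0.17 between the species. With 2 pairs each, this cannot show whether same-numbered libraries were handled together. A crossed pairing of the species, chosen after seeing the data, called 56 and 78.

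Detected shares of members in inflorescence 1, inflorescence 2, rosette 1, rosette 2 and the apex were 91.1, 91.3, 77.4, 73.6 and 79.5% at 1 read or more and 75.1, 78.5, 64.8, 60.2 and 65.5% at 10 or more. At 0.5 CPM the inflorescences gave 72.4 and 76.4%. Without the 5 members with most reads, members took 3.41, 3.46, 2.8, 2.62 and 3.65% of reads in the same order. The median gene length ratio was 1.03, and 1.11 against the TAIR10 span of the ortholog, a length added after seeing the data.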
